A study of Mus musculus with 2 samples.

Results

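The interferon-gamma-inducible GTPases Gbp2, Gbp3, Gbp4, Gbp6, Gbp7, Igtp, Irgm1, Irgm2, Iigp1 and Tgtp1 were examined in RNA sequencing libraries from mouse small-intestinal villi. Members were taken by gene symbol, with the transcript row of the highest mean for each symbol. Of the 10 genes, 8 had a row among 20722 symbols, and Gbp4 and Tgtp1 were not analysed here. The control library, titled WT, came from C57BL/6 villi of genotype Rosa26-CreERT2 Cdkn2a-/-, so that both groups carried an inducible Cre recombinase at the Rosa26 locus and lacked Cdkn2a. The other library, called dKO-labelled below, had the genotype Rosa26-CreERT2 Cdkn2a-/- Ring1a-/- Ring1bf/f, which adds a constitutive deletion of Ring1a and a conditional allele of Ring1b. Ring1a (Ring1) and Ring1b (Rnf2) are the ubiquitin ligases of Polycomb repressive complex 1, and the design asks which villus transcripts differ without them. Both groups received 3 tamoxifen injections and were collected at day 6. A Rosa26-driven Cre is not limited to the epithelium, and the labels do not give the number, age or sex of the animals. There was 1 library per genotype, so no comparison below could be checked on replicates, and each is between these 2 libraries.

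Interferon-gamma is made mainly by T cells and NK cells. It signals through the receptor chains Ifngr1 and Ifngr2 and the kinases Jak1 and Jak2, acts on genes through gamma-activated sites in their promoters, and induces the transcription factor Irf1. Among the strongest targets are guanylate-binding proteins (GBPs) and immunity-related GTPases (IRGs), which attack vacuoles that shelter bacteria and parasites. IRGs fall into effectors with a classical GTP-binding loop, such as Iigp1 and Tgtp1, and the regulatory Irgm proteins Irgm1, Irgm2 and Igtp (also called Irgm3), which sit on host membranes and hold the effectors inactive there.

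The regulatory Irgm genes parted in these data, with Irgm1 on one side and Irgm2 and Igtp on the other. Their promoter windows are shown first, chosen after the values were seen, and a link between motifs and levels was not tested. Each window covers 250 bases before and 50 bases after the RefSeq start on build GRCm38.p6, which is not the mm9 build of the reads. Gm12250, known as Irgb10, is shown because it is the gene next to Igtp. Capitals mark matches to a pair of motifs searched on both strands. The first is TTC and GAA with 3 bases between, a core of gamma-activated sites. The second is GAAA and GAAA with 2 bases between, a core of interferon-stimulated response elements bound by IRF factors.
Irgm1, chr11:48871371-48871670, minus strand: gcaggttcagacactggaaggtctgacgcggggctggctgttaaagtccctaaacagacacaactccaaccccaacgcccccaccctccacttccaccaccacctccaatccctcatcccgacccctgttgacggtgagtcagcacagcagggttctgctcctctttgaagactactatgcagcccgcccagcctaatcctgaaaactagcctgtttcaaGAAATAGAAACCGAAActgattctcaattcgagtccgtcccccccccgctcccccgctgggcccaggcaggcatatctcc
Igtp, chr11:58199306-58199605, plus strand: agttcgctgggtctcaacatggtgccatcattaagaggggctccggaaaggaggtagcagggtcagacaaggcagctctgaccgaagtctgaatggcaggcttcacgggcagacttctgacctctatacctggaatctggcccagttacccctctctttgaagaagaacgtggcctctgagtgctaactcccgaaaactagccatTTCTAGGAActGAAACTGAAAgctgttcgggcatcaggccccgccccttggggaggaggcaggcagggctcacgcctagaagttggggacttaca
Irgm2, chr11:58214727-58215026, plus strand: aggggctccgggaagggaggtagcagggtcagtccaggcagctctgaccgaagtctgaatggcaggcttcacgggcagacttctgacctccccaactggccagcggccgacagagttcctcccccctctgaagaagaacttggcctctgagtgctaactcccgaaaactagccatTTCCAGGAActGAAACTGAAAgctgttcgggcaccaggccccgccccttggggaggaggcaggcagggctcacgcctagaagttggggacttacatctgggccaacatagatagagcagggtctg
Gm12250, chr11:58183593-58183892, plus strand: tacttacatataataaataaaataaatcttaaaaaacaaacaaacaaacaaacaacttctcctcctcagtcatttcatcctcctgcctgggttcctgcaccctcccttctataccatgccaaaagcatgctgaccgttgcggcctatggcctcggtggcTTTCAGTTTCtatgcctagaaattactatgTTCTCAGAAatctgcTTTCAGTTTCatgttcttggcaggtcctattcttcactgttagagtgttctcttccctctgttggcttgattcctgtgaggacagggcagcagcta
The Irgm1 window held no match to the first motif and 2 overlapping matches to the second, between 30 and 15 bases before the start. The Igtp window had both motifs with 2 bases between them, and the Irgm2 window had the same arrangement. The longest identical run between the Igtp and Irgm2 windows was 61 bases, against 11 bases between Igtp and Irgm1. That run begins after both motifs and extends to the last base of the Igtp window, so the window limits its length. The first motif itself differed, with TTCTAGGAA in Igtp and TTCCAGGAA in Irgm2. In Gm12250 the first motif was followed after 6 bases by the second, with a further match to the second upstream. Matches of these letters are a description and do not show binding, and a missing match says only that the letters are not in that window.

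Across the 10 genes, 7 had a promoter window in the RefSeq table: Gbp2, Gbp3, Gbp7, Igtp, Irgm1, Irgm2 and Tgtp1. The second motif was present in all 7, against 3.44% of 32851 windows of all genes, and the first in 4, against 8.30%. Gbp2 had 1 match to the second motif and none to the first, and Gbp3 had 2 overlapping matches to the second in 1 of its windows. Like Irgm1, both genes thus had matches to the second motif alone. Their read ratios, given below, were 0.773 and 0.946, and that of Irgm1 was 1.96. Both motifs with at most 5 bases between them occurred in 12 windows (0.0365%), a spacing limit chosen after the positions were seen. Igtp, Irgm2, Tgtp1 and its near copy Tgtp2 were among the 12 genes of those windows.

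**Figure D1:**
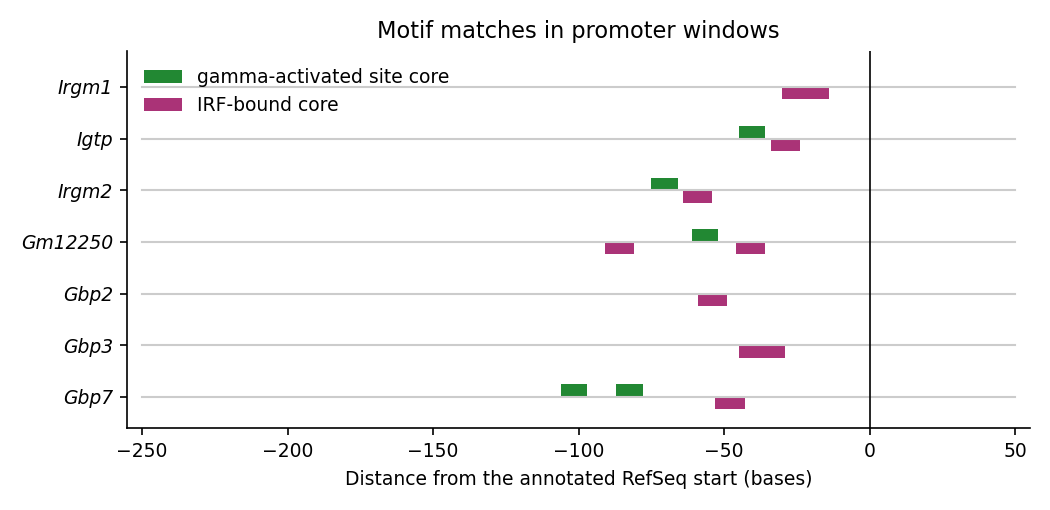
Positions of motif matches in the promoter windows of 7 GBP and IRG genes, in bases from the annotated start. Green bars are matches to the gamma-activated site core and purple bars to the IRF-bound core. For Gbp3 the window with matches is drawn. Irgm1 has purple bars alone, whereas Igtp and Irgm2 have a green bar directly before a purple one.

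The control library held 775827 reads and the dKO-labelled library 1058196, recovered from the deposited normalised counts. The labels were checked on the targeted genes. Ring1 had 10 reads in each library, a ratio of 0.901 after scaling (0.337 to 2.41), and Rnf2 had 59 and 82 reads, a ratio of 1.25 (0.886 to 1.78), so neither transcript count was lower beyond counting error. Such whole-transcript counts cannot reveal the deletion of single exons. Xist had 80 and 1 reads and the Y-linked Ddx3y 0 and 131, so sex and genotype cannot be told apart. Ratios are dKO-labelled over control, scaled by the deposited size factors, with 95% exact counting intervals that leave out variation between animals. Epithelial markers of villi were present in both libraries. All 10 epithelial markers were measured, 6 with a ratio above 1 and 4 below, with a median log2 ratio of 0.15. Of all 6001 measured genes, 4523 had a log2 ratio above 0 and 1478 below. They were not alike in the 2 libraries: Cdh1, the epithelial cadherin, had 1102 and 1032 reads, whereas the brush border disaccharidase genes Sis and Lct had 37 and 357, and 184 and 847, which is 8.70-fold (6.19 to 12.6) and 4.15-fold (3.53 to 4.89) higher. Their part in the results below was not tested. The scaling matters throughout: the median log2 ratio of all 6001 measured genes was 0.51, and other scalings lower every log2 ratio by 0.30 (total reads), 0.52 (TMM) or 0.69 (upper quartile).

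Of the 8 members with a row, 6 had a read in either library and 5 (Irgm1, Irgm2, Igtp, Gbp2 and Gbp3) were measured, that is, had a mean of at least 20 normalised counts. None of the 5 reached 2-fold in either direction, against 26.2% of all measured genes that were higher and 4.18% that were lower. The counting interval lay wholly above a ratio of 1 for 1 member, Irgm1, where 52.5% of all measured genes did so. It lay wholly below 1 for 2 members, Irgm2 and Igtp, where 12.1% of all measured genes did so. The median log2 ratio of the 5 was -0.34, which is 0.85 below the median of all measured genes. Without Irgm1, left out after its value was seen, it was -0.58. Fewer cells of a type and less RNA per cell cannot be told apart in these tissue libraries.

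**Figure D2:**
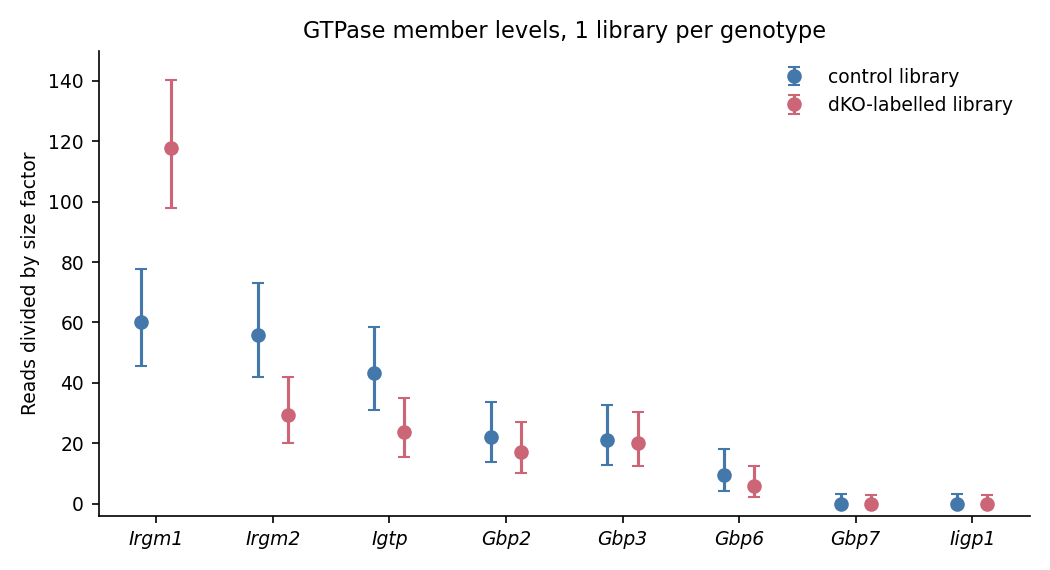
Level of each of the 8 members with a row, as reads divided by the size factor, in the control (blue) and dKO-labelled (red) library. Bars are 95% exact Poisson intervals, or, for genes at 0, the limit of 3 reads. Irgm1 is at 60.0 and 118, with bars that do not overlap. The bars of Irgm2 only just miss each other, at 41.82 and 41.78. Those of Igtp overlap (31.0 to 58.6 and 15.4 to 35.0), as do those of Gbp2, Gbp3 and Gbp6, and Gbp7 and Iigp1 are at 0.

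Irgm1 (NM_008326), the Irgm protein best known for its part in autophagy and host survival of infection, had 57 reads in control villi and 124 in dKO-labelled villi. It was the only measured member with a higher level there, at a ratio of 1.96 (1.42 to 2.73). Its log2 ratio of 0.95 lay 0.44 above the median of all measured genes, and 28.6% of those genes had a higher one. The interval reached 1 with TMM scaling (0.994 to 1.91) and with the upper quartile (0.879 to 1.69). The Irgm1 level was thus above the control with the deposited factors, and not beyond counting error with these scalings.

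Irgm2 (NM_019440), a Golgi-associated regulator, had 53 reads in control villi and 31 in dKO-labelled villi, 1.90-fold lower (1.20 to 3.06). Igtp (NM_018738), the regulator of the endoplasmic reticulum and lipid droplets, had 41 and 25 reads, 1.82-fold lower (1.08 to 3.12). Their log2 ratios of -0.88 and -0.82 were among the lowest of the measured genes, with 5.13% and 5.83% of those genes below them. Both stayed below 1 beyond counting error with each scaling, and with TMM they were 2.71-fold (1.71 to 4.37) and 2.60-fold (1.55 to 4.47) lower. Relative to the median of all measured genes they were the 2 members at least 2-fold lower, a class that held 10.4% of all measured genes. Igtp and Irgm2 are next to each other on chromosome 11, and some of their GENCODE exons overlap on the same strand. Of the 50-base words of the Igtp transcript, 12.3% also occur in another gene, which is Irgm2, so the counts of this pair are not fully separate.

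The split among the regulators did not depend on the scaling, since it also stood within each library. Of the reads of the 3 Irgm genes, Irgm1 took 37.7% (30.0 to 46.0, Clopper-Pearson) in control villi and 68.9% (61.6 to 75.6) in dKO-labelled villi. Irgm2 took 35.1% (27.5 to 43.3) and 17.2% (12.01 to 23.5), and Igtp 27.2% (20.2 to 35.0) and 13.9% (9.19 to 19.8). The intervals of the libraries do not overlap for any of the 3. The shares make up a whole in each library, so a higher Irgm1 share lowers the others, and they are not 3 separate results. The grouping of these genes was chosen after the values were seen.

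Between single genes, Irgm1 had 1.08 reads for each Irgm2 read in control villi and 4 in dKO-labelled villi, a quotient of 3.72 (2.09 to 6.65, exact conditional interval). For Irgm1 to Igtp the ratios were 1.39 and 4.96, a quotient of 3.57 (1.90 to 6.72). Igtp to Irgm2 stood at 0.774 and 0.806, a quotient of 1.04 (0.506 to 2.14), so that this pair differed by less than counting error, within an interval that reaches 2-fold. Irgm1 to Gbp2 had a quotient of 2.54 (1.18 to 5.46), and Irgm1 to Gbp3 2.07 (0.977 to 4.36). Irgm2 to Gbp3 had 0.557 (0.244 to 1.27), so neither Irgm1 nor Irgm2 parted from Gbp3 beyond counting error. Only 0.995% of the 50-base words of Irgm1 occur in another gene, and its exons overlap no other gene in GENCODE M21.

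**Figure D3:**
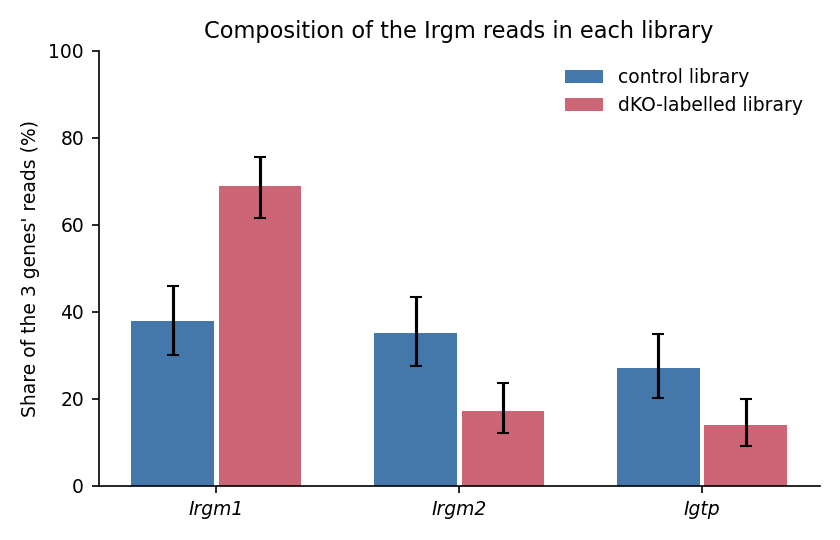
Share of the reads of Irgm1, Irgm2 and Igtp held by each gene in the control (blue) and dKO-labelled (red) library, in percent, with 95% Clopper-Pearson intervals. Irgm1 goes from 37.7% to 68.9%, and both other genes have shares that are lower in the dKO-labelled library, with no overlap of the bars.

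The GBP members had low counts in both libraries. Gbp2 (NM_010260), a lipid-anchored GBP that coats bacteria and their vacuoles, had 21 and 18 reads, a ratio of 0.773 (0.388 to 1.52). Gbp3 (NM_018734) had 20 and 21 reads, a ratio of 0.946 (0.488 to 1.84). Gbp6 (NM_194336) had 9 and 6 reads, under the minimum for a measured gene, a ratio of 0.601 (0.176 to 1.89). None of Gbp2, Gbp3 and Gbp6 differed beyond counting error with the deposited factors. Their intervals are wide and reach 2.58-fold, 2.05-fold and 5.68-fold lower, and 1.52-fold, 1.84-fold and 1.89-fold higher. With the upper quartile Gbp2 was 2.09-fold lower (1.06 to 4.17). The counts of Gbp6 are uncertain, since 90.2% of its 50-base words also occur in other genes, mainly Gbp10 and the overlapping gene model Gm43302. For Gbp2 and Gbp3 the share was 2.07% and 4.88%.

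The GBPs together took 50 of 201 member reads in the control, 24.9% (19.1 to 31.4), and 45 of 225 in the dKO-labelled library, 20% (14.98 to 25.8). These intervals overlap. Summed over all members, the reads gave a ratio of 1.01 (0.831 to 1.23), in which the higher Irgm1 count and the lower Irgm2 and Igtp counts offset each other. Irgm1 alone made up 28.4% of member reads in control villi and 55.1% in dKO-labelled villi.

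Gbp7 and the effector Iigp1, also called Irga6, were listed at 0 reads in both libraries. For a count of 0 a set limit of 3 reads was used, or 3.16 normalised counts in control villi and 2.85 in dKO-labelled villi. The exact Poisson interval used for the other genes reaches further, to 3.89 and 3.50. Irf9, a factor of the interferon response, was likewise listed at 0, although the interferon target Ifit1 had 346 and 532. A row at 0 is therefore not read here as absence of the transcript. No fold is given for these genes, and the effector IRGs among the members have no other value.

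Per kilobase of transcript, which allows genes to be compared, the control order of levels was Irgm1 at 26.6 scaled reads, Igtp at 21.4, Irgm2 at 16.1, Gbp2 at 8.79, Gbp3 at 8.01 and Gbp6 at 3.64. The counting intervals of neighbours in this order overlapped throughout, for example 20.1 to 34.4 for Irgm1 and 15.3 to 29.0 for Igtp. In the dKO-labelled library Irgm1 stood at 52.1 (43.3 to 62.1) and clear of Igtp at 11.7 (7.60 to 17.3). Below it followed Irgm2 at 8.51, Gbp3 at 7.58, Gbp2 at 6.79 and Gbp6 at 2.19, again with overlap between neighbours. In that library the widest gap between neighbours was the one below Irgm1.

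In the authors' deposited table the unadjusted DESeq p-values were 0.486 for Irgm1, 0.536 for Irgm2, 0.577 for Igtp and 0.847 for Gbp2. Without replicates these values carry no measured spread between animals, and they show neither a difference nor its absence.

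Other genes of both families were listed for comparison, and 15 had a row. Of these, 3 were measured: Gm12250, Gm5431 and Irgq. Gm12250 (NM_001135115), an IRG that works with GBPs on bacterial membranes, had 31 and 17 reads, 2.02-fold lower (1.09 to 3.90), and its log2 ratio on the scale with the added count was -0.94. The 3 neighbouring genes Gm12250, Igtp and Irgm2 thus had ratios of 0.494, 0.5496 and 0.527. Gm5431, an IRG-related gene next to Irgm1, had 23 reads in each library, a ratio of 0.901 (0.483 to 1.68). Irgq, a divergent family member, had 58 and 67 reads, a ratio of 1.04 (0.722 to 1.51).

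Among family genes with reads in both libraries Gbp8 had the widest difference, with 21 reads in control villi and 2 in dKO-labelled villi, a ratio of 0.0858 (0.00976 to 0.351). Its mean of 13.01 normalised counts was below the minimum, so it enters no count of measured genes. In the control Gbp8 had as many reads as Gbp2, and in the dKO-labelled library Gbp2 had 9 for each Gbp8 read. Of its 50-base words 21.2% occur in another gene, mainly Gbp11 and Gbp4. Gbp9 had 6 and 3 reads, Gbp5 4 and 3, Tgtp2 3 and 1, and Gbp2b 0 and 1, while Gbp10 and Gbp11 were listed at 0. Gm4951 and Gm4841, IRG-related genes, had 0 and 4 reads each. At these counts differences were not detectable.

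**Figure D4:**
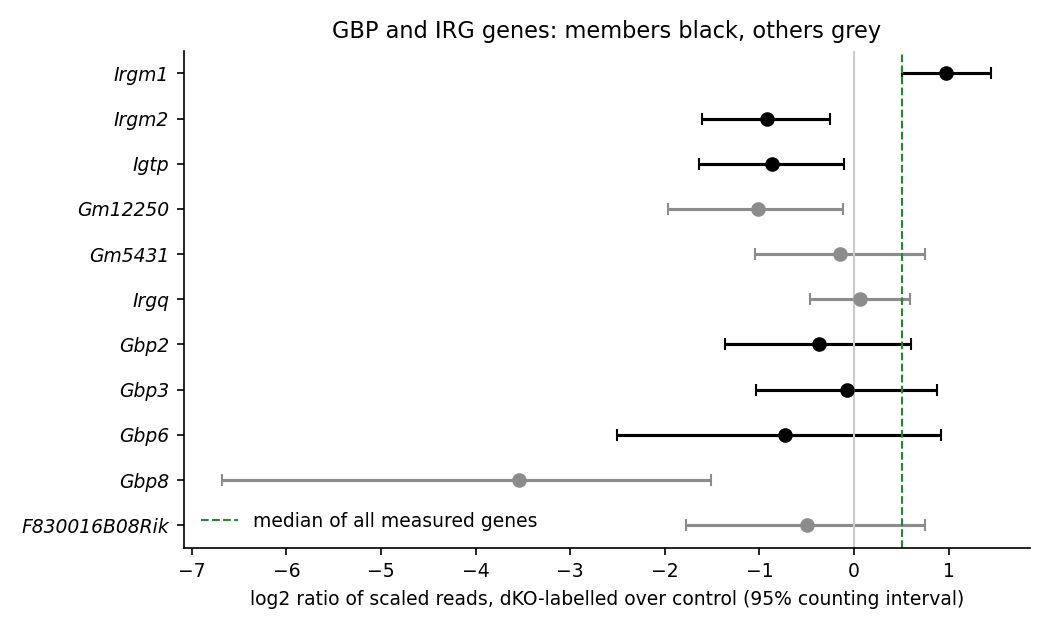
Log2 ratio of scaled reads, dKO-labelled over control, for members (black) and other genes of both families (grey), with 95% counting intervals. The dashed line is the median of all measured genes at 0.51. Irgm1 lies to the right of 0, and Irgm2, Igtp, Gm12250 and Gbp8 have intervals wholly to the left of it.

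The signal chain that induces the GTPases was examined next. Of 16 genes with a row 9 were measured, 1 of them higher by 2-fold or more and 2 lower by the log2 ratio with the added count, with a median of -0.13 against 0.51 over all measured genes. Relative to that median 0 were higher and 3 lower, classes that held 11.8% and 10.4% of all measured genes. The receptor gene Ifngr1, the ligand-binding chain, had 255 and 265 reads, a ratio of 0.937 (0.786 to 1.12). Ifngr2, the signalling chain, had 335 and 477 reads, a ratio of 1.28 (1.11 to 1.48). Both receptor chains were thus well covered in both libraries, whereas the ligand gene Ifng was listed at 0 reads in both.

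Jak1 had 224 and 187 reads, a ratio of 0.753 (0.616 to 0.918), and Jak2 9 reads in each library. Stat2, used by type I interferon receptors, was 2.01-fold lower (1.59 to 2.56) at 203 and 112 reads. With the added count its log2 ratio was -0.995, just short of the 2-fold rule, so it is not among the 2 lower genes. Irf1 had 3 and 1 reads, too few for a comparison. Irf8 had 178 and 181 reads, a ratio of 0.917 (0.741 to 1.13), and Irf2, which competes with Irf1, 89 and 118, a ratio of 1.20 (0.900 to 1.59).

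Nlrc5, the interferon-inducible activator of MHC class I genes, had the lowest log2 ratio of the chain at -4.03, with 43 reads in control villi and 1 in dKO-labelled villi. Its ratio was 0.0210 with a counting interval of 0.000519 to 0.123. The feedback inhibitor gene Socs3 had 132 and 69 reads, 2.12-fold lower (1.57 to 2.88). Pias1, an inhibitor of cytokine signalling, was the 1 gene of the chain at least 2-fold higher, at 27 and 83 reads and a ratio of 2.77 (1.78 to 4.45). Socs1, Ciita and Irf9 were listed at 0, and Ptpn2, a phosphatase acting on this pathway, had 6 and 2 reads.

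Among other products of interferon-gamma, 7 of 8 genes with a row were measured (median log2 ratio -0.83). Of these, 3 were lower by 2-fold or more and 1 was higher, against 4.18% and 26.2% of all measured genes. The ubiquitin-like gene Ubd had 219 and 26 reads, 9.34-fold lower (6.21 to 14.6), and the tryptophan-degrading enzyme gene Ido1 235 and 74 reads, 3.52-fold lower (2.70 to 4.64). The chemokine gene Cxcl10 had 35 and 16 reads, 2.43-fold lower (1.31 to 4.70), and Nos2, the inducible nitric oxide synthase, 13 and 36 reads, a ratio of 2.50 (1.29 to 5.13). Gch1, which makes the cofactor of nitric oxide synthases, had 348 and 217 reads, 1.78-fold lower (1.497 to 2.12). Cxcl9 had 39 and 35 reads and Cd274, the PD-L1 gene, 47 and 42, neither beyond counting error. Of the 7 genes 6 thus had a log2 ratio below 0 and Nos2 alone lay above, beside 1478 and 4523 of all 6001 measured genes. Relative to the median of all measured genes 4 were lower by 2-fold or more and 0 higher, classes that held 10.4% and 11.8%.

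Of 13 measured genes of inducible antigen presentation none was 2-fold higher or lower (median -0.11), against 26.2% and 4.18% of all measured genes. Tap2, a subunit of the peptide transporter, was furthest from 0 at 239 and 134 reads. Set against the median of all measured genes, 2 of the 13 were at least 2-fold lower and 0 higher, classes that held 10.4% and 11.8%. In all, 10 of the 13 lay below that median. Of 17 measured effectors of type I interferon, 4 were lower by 2-fold or more and 0 higher (median -0.45), beside 4.18% lower and 26.2% higher over all measured genes, led by the antiviral sensor gene Oas2 with 167 and 14 reads. Relative to the median of all measured genes 7 were lower and 0 higher, and 16 of the 17 lay below that median. Mx1, a dynamin-like GTPase of the type I response, had 1 read in each library and Mx2 was listed at 0.

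The GTPases are placed on vacuoles with the help of the autophagy conjugation system, and GBPs pass bacterial products on to inflammasomes. Of 8 measured autophagy genes none was 2-fold higher or lower, where 26.2% of all measured genes were higher and 4.18% lower. Their median of 0.45 lay 0.06 below that of all measured genes. Map1lc3b, which encodes the membrane-conjugated LC3 protein, had 191 and 378 reads, a ratio of 1.78 (1.495 to 2.13). Of 9 measured inflammasome and pyroptosis genes, 2-fold or more separated 4 higher genes and 1 lower gene. The adaptor gene Pycard had 24 and 198 reads, 7.44-fold higher (4.86 to 11.9), and the sensor gene Nlrp6 24 and 182, 6.84-fold higher (4.45 to 10.9). Casp4, the mouse caspase-11 gene that acts with GBPs, had 25 and 97 reads, 3.50-fold higher (2.23 to 5.67), and Casp1 34 and 126, 3.34-fold higher (2.27 to 5.03). Naip6, the 1 lower gene, had 60 and 32 reads, 2.08-fold lower (1.33 to 3.30). Gsdmd had 838 and 595 reads, 1.56-fold lower (1.40 to 1.74), and Nlrc4 181 and 139, 1.44-fold lower (1.15 to 1.82). The list median of 0.30 was below that of all measured genes, as the other members lay lower. Relative to the median of all measured genes the counts were 4 higher and 3 lower of 9, against 11.8% and 10.4% of all measured genes.

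**Figure D5:**
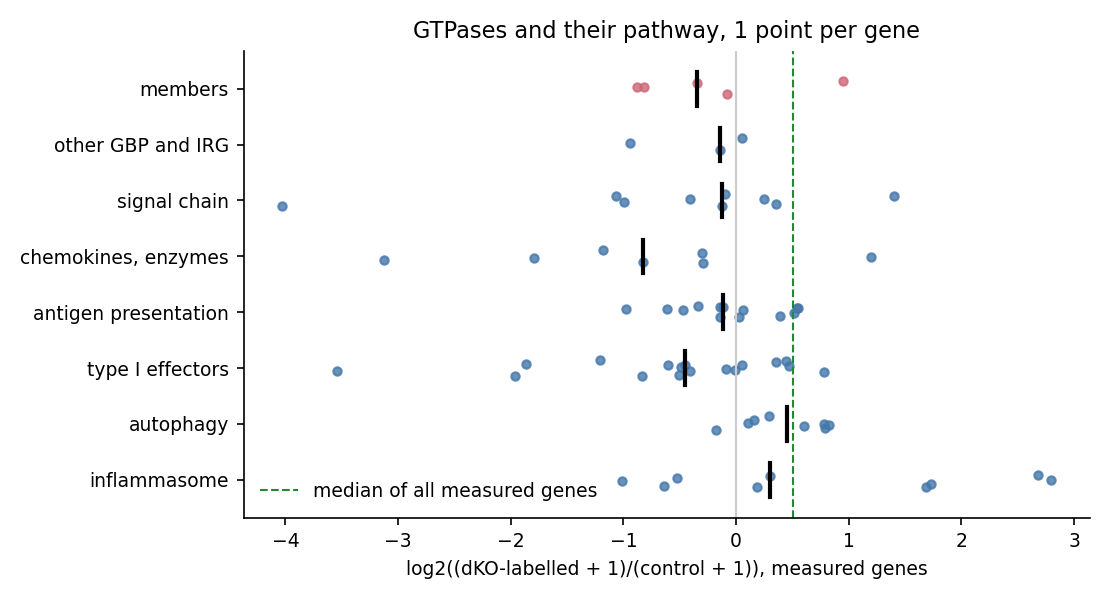
Log2 ratio of measured genes in the GTPase members (red) and 7 related lists (blue), 1 point per gene, with list medians as black bars and the median of all measured genes as a dashed line. The members' median is at -0.34, and Irgm1 is the 1 member to the right of the dashed line at 0.51.

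Markers of other cells were summed in the same libraries. Lymphocyte and NK cell genes, from cells that make interferon-gamma, had 126 reads in control villi and 248 in dKO-labelled villi over 16 genes, a ratio of 1.77 (1.43 to 2.22). Ccl5, a chemokine of cytotoxic lymphocytes, gave 15 and 58 of these reads, the widest difference in reads, and the granzyme genes Gzma 64 and 94 and Gzmb 9 and 30. The defining T cell genes Cd3e and Cd3g had 0 and 3, and 7 and 17 reads, and Ptprc and Ncr1 were listed at 0. Nkg7 had 14 and 10 reads, Cd4 8 and 11, and Prf1 1 in each library. After scaling, 11 of the 16 genes had more reads in dKO-labelled villi and 2 had fewer. Most measured genes went the same way: of all 6001, 4523 had a log2 ratio above 0 and 1478 below. Of the 16 only 2, Gzma and Ccl5, reached the minimum for a measured gene. Myeloid genes, from cells that also express these GTPases, had 115 and 155 reads over 10 genes, a ratio of 1.21 (0.948 to 1.56). Fibroblast and smooth muscle genes had 54 and 348 reads over 9 genes, a ratio of 5.81 (4.35 to 7.89). Endothelial genes had 53 and 49 reads over 6 genes, but Tie1 alone had 48 and 5. The other 5, a split made after the values were seen, had 5 and 44 reads, with Lyve1 at 1 and 19 and Vwf at 0 and 10. B and plasma cell genes had 32 and 101 reads over 5 genes, of which Igj gave 29 and 82. With the deposited factors, the sums of lymphocyte, B and plasma cell, and fibroblast and smooth muscle genes were thus higher in the dKO-labelled library. The epithelial marker sum was higher too, at a ratio of 1.13 (1.10 to 1.15). The intervals of the myeloid sum and of the whole endothelial sum, 0.833 (0.553 to 1.25), held 1. With 2 libraries, none of these sums can be matched to the level of a single gene. With these factors the median log2 ratio of all measured genes was also above 0, at 0.51. The other scalings lower every ratio, and the marker sums were not recomputed under them. The part of these cells in the results was not tested.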

How the data were processed

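Per the labels' protocols, a TruSeq RNA v2 kit was used for library construction. TopHat, DESeq and the mm9 build are named in the submitters' processing notes, while counting tool, strand setting and versions are not given in the sources used. Per the file headers, the signal values deposited by the authors are DESeq base means, that is, normalised counts. Each value was a whole multiple of its column's smallest value within 0.001 of a step, in 100% of rows. Reads were recovered as steps minus 1, on the inference, stated by no label, that 1 read had been added to every row. The deposited ratio (fold) and log2 columns are quotients of these values, and the p-value column in the authors' table is unadjusted. With 1 library per genotype a count test could not be fitted.

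The main measure was log2((dKO + 1)/(control + 1)), in genes with a mean of at least 20. Printed ratios are of reads, with Clopper-Pearson intervals at 95%. Intervals and the floor of 3 reads cover counting error only. Of the identifiers, 98.5% matched RefSeq (GRCm38.p6), used for names, neighbours and promoters. Transcript lengths and shared 50-base words came from GENCODE M21, with the longest transcript matched to each accession. Both differ from mm9. A rule named all members, all listed family and signal chain genes, and up to 4 genes of each other list. Further genes of those lists, such as Gch1, Cxcl9, Cd274, Ccl5, Gzmb and Tie1, were named after their values were seen. The members and lists were chosen with earlier results of these data known. Planned protein features were not used here. Functions were tested on simulated data. Python 3.11.15, pandas 2.3.3, numpy 2.4.6, scipy 1.17.1, matplotlib 3.10.9 and edgeR 4.0.16 (TMM) in R 4.3.3 were used.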

Additional observations from a re-analysis of the deposited data

How the results depend on the processing

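Leaving out replicates was not possible with 1 library per genotype, and nothing could be blocked. No paired analysis was possible because the groups share 1 replicate number alone. At a minimum mean of 100 no member was left. No member was at least 2-fold higher under any setting run. Members at least 2-fold lower numbered 0 with the deposited factors, 2 under total reads, 2 under TMM, 2 after setting the median of measured genes to 0, and 3 under the upper quartile. The members' median log2 ratio of -0.34 became -0.63 under total reads, -0.84 under TMM, -1.005 under the upper quartile, -0.85 after setting the median to 0, -0.21 without a filter, -0.46 with the added count taken off and, chosen after seeing the data, -0.58 without Irgm1. All measured genes at least 2-fold higher and lower numbered 1574 and 251, then 972 and 436 under total reads, 664 and 652 under TMM, 477 and 903 under the upper quartile, 711 and 626 after setting the median to 0, 3704 and 892 without a filter, 358 and 104 above a mean of 100, and 627 and 104 by counting intervals beyond 2-fold. Of calls, 86.2% were higher with the deposited factors and 34.6% with the upper quartile. Of 42 values of the 6 members with a read, 42 kept their sign, but the other scalings lower every gene alike, so only Irgm1 could have changed sign under them. Irgm1 was at 0.44 under TMM, 0.26 under the upper quartile and 0.44 after setting the median to 0, below its counting interval with the deposited factors. Counts under about 25 reads limit Gbp2, Gbp3 and Gbp6.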
